A study of Homo sapiens with 19 samples.

Results

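Immediate early genes are transcribed within minutes of a growth factor, stress or adhesion signal, without new protein synthesis, and their transcripts are short-lived. Many code for transcription factors: FOS, FOSB and FOSL1 pair with JUN, JUNB and JUND to form AP-1, EGR1 and EGR2 are zinc finger factors that bind GC-rich sites, and MYC pairs with MAX at E-boxes. IER2 is a small nuclear protein of the same response. In human embryonic stem cells (hESCs) the ERK pathway, which fibroblast growth factor feeds, is a known input to these genes. Here 10 genes, FOS, FOSB, FOSL1, JUN, JUNB, JUND, EGR1, EGR2, IER2 and MYC, were followed. They were chosen by name, with earlier results of these data known. Each had 1 probe, found through its RefSeq transcript, among 20503 genes with a probe on the array.

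The samples were KhES-3 cells, a human embryonic stem cell line, harvested at 19 times between 3 and 72 h of culture under conditions that induce brown adipocytes (BAs). According to the labels, the cells had been grown on irradiated mouse embryonic fibroblasts with basic FGF, whereas the study's methods describe feeder-free maintenance. All were then moved to low-attachment dishes with a serum-free medium that held BSA, lipids, insulin, transferrin, selenium, ascorbic acid-2-phosphate and the cytokines IGF-II, BMP4, VEGFA, KITLG, FLT3LG and IL-6, so that change of dish, medium and cytokines came together in every sample. Cells before induction were not analysed here, and every group is 1 array of 1 cell line, so that a time point has no replicate and p-values rest on the scatter around a fitted line.

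The arrays lay on 3 slides, with 3, 4, 6, 8, 10 and 12 h on the first, 14 to 42 h on the second and 48 to 72 h on the last, which was scanned on another day. Time and slide cannot be told apart across these borders, and trends are therefore given within each slide as well as over all arrays. From 49.5% to 64.7% of probes were well above background per array. Signals are given scaled to a 75th percentile of 690 on every array, and values of different probes are not set against each other. The pluripotency markers went with the hESC label: 9 of 10 pluripotency genes had a probe and all 9 were well above background on every array. POU5F1 had signals between 247500 and 394500. The summed signal of the 9 went from 953500 (3 h) to 706200 (24 h) and 695400 (72 h). Of 8 fibroblast genes, COL1A1, COL1A2, THY1 and FBLN1 were well above background on all arrays, whereas COL3A1 and LUM were so on 1 array and POSTN on 2. DCN was so on at least 5 arrays but not on all. Of 8 mesoderm and endoderm genes 6 were well above background on all arrays, and of 8 trophoblast and amnion genes 2 were. All 8 of either list were so on at least 5 arrays, and detection alone does not set the hESC label apart.

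Immediate early promoters are known for sites of signal-regulated factors, and 4 are shown here, of the 2 genes with the single-array peaks at 60 h, of EGR2 and, for comparison, of JUND, which varied least. The 250 bases before the start were taken from RefSeq (GRCh38.p14), where 8 of the 10 genes matched. Capitals mark CArG boxes (the site of SRF), CRE sites (TGACGTCA, read by CREB), AP-1 sites (TGACTCA), EGR sites (GCGNGGGCG), TATAAA and CACGTG E-boxes, on either strand.
EGR1, chr5:138465229-138465478, plus strand: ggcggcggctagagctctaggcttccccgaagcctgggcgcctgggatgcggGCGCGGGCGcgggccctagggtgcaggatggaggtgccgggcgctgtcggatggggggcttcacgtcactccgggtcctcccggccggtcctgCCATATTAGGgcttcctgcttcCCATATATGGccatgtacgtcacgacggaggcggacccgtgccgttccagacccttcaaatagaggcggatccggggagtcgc
EGR2, chr10:62816367-62816616, minus strand: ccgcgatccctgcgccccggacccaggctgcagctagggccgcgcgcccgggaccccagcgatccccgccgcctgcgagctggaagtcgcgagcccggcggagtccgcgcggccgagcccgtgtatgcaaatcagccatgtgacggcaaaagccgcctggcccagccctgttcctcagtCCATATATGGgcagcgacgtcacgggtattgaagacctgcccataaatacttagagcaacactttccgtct
FOS, chr14:75278578-75278827, plus strand: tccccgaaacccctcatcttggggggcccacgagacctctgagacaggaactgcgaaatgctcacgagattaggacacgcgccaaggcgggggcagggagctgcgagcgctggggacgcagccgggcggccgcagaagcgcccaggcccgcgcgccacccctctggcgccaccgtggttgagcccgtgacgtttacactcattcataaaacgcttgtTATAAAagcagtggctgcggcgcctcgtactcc
JUND, chr19:18281623-18281872, minus strand: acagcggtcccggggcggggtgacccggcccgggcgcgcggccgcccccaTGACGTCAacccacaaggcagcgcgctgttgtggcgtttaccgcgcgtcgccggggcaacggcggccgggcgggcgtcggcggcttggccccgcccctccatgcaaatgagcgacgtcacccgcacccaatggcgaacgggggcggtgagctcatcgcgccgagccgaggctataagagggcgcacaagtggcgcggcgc

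EGR1 held 2 CArG boxes, from 105 to 96 and from 83 to 74 bases before its start, and EGR2 held 1, from 71 to 62 bases before 1 of its 3 starts in the table. A CArG box was found in 1.16% of all 35116 promoters of this length. EGR1 also held an EGR site, as 8.41% of promoters did. FOS carried TATAAA from 33 to 28 bases before its start, and so did FOSB and JUNB at 30 to 25 and 31 to 26 bases, against 10.7% of promoters. JUND, the gene that varied least here, held a CRE, as 1.65% of promoters did. The CACGTG E-box (6.34% of promoters) was present before another EGR2 start. The AP-1 site (4.2% of promoters) was in none of the 8. GC boxes (GGGCGG), not in capitals, were in 6 of the 8 and in 42.6% of promoters. The matches shown do not overlap, and letters outside these windows were not searched.

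To find out what happened in the first hours, slopes of log2 signal on hours were fitted with limma over the 6 arrays from 3 to 12 h. The slopes of all 10 genes were below 0, and 7 of them fell at an adjusted p under 0.05: FOS, FOSB, FOSL1, JUN, EGR2, IER2 and MYC. Of 30313 probes tested, 3.27% fell and 3.25% rose, and none of the 10 genes rose. The median fitted change from 3 to 12 h was -1.27 on the log2 scale for the 10 genes and 0.03 for all probes. JUNB, EGR1 and JUND did not pass the test.

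**Figure D1:**
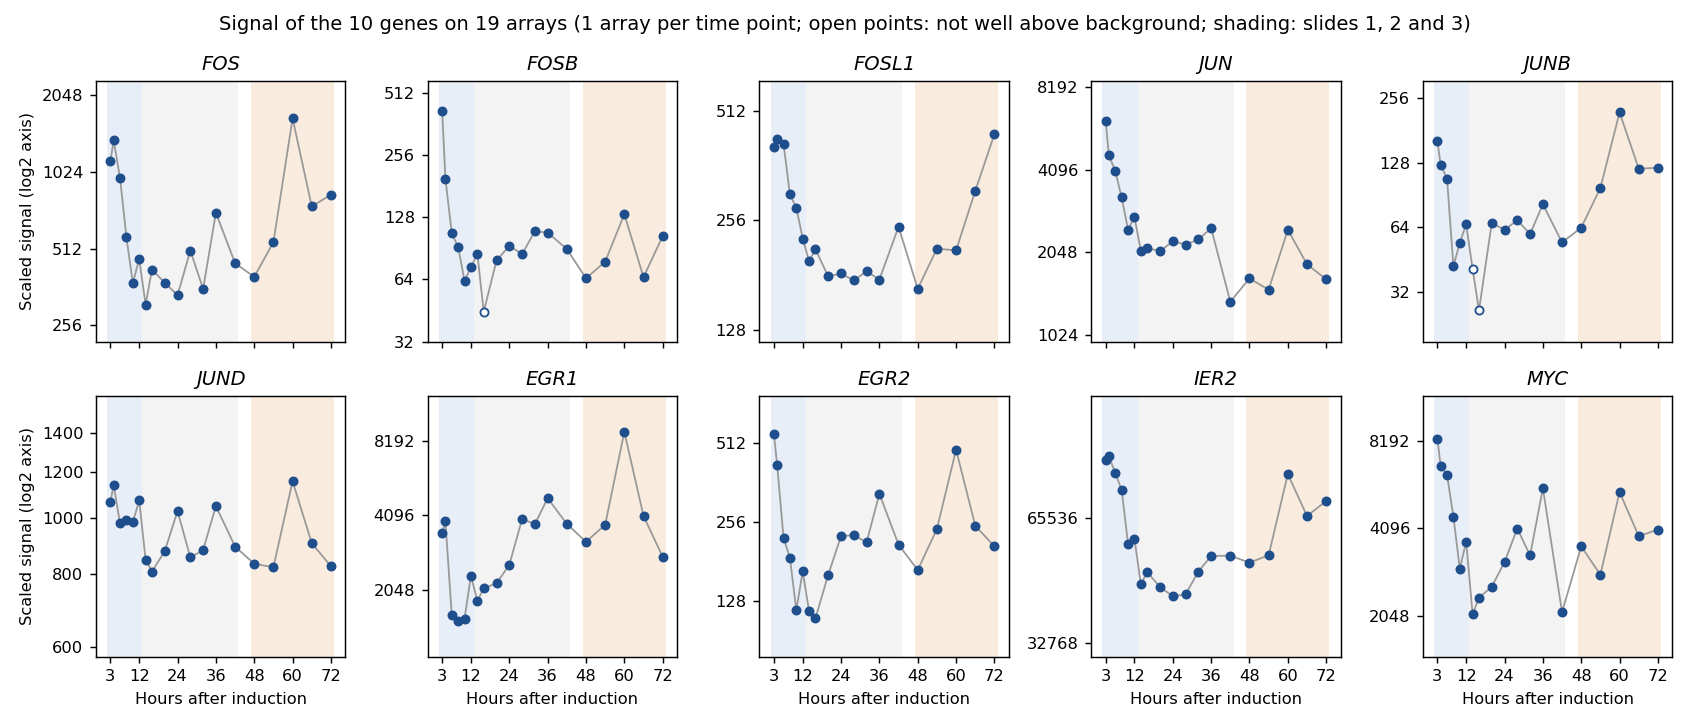
Scaled signal (log2 axis, a different range for each gene) against hours after induction for the 10 genes. Each point is 1 array, open points are not well above background, and shading marks the 3 slides; most genes were high at 3 and 4 h, low between 10 and 20 h and high again at 60 h.

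Among the FOS genes, FOS, the best known partner of JUN, had signals of 1127, 1359, 968, 566, 375 and 466 at 3, 4, 6, 8, 10 and 12 h. It was highest at 4 h, and every array from 8 h on this slide was below the 3 arrays before it. Its slope was -0.199 per hour (SE 0.0357), a fitted log2 change of -1.79 with an adjusted p of 0.0364. FOSB had its steepest step between the 3 h and 4 h arrays, with 419, 198, 107, 91.9, 63.1 and 73.3 on the same arrays. Its slope was -0.263 per hour (SE 0.0555) and its fitted change -2.37, with an adjusted p of 0.0499, just inside the threshold. FOSL1, which codes for FRA-1, kept 409, 429 and 416 until 6 h and then had 302, 277 and 228. Its fitted change was -0.93 (SE of the slope 0.0158, adjusted p = 0.0277).

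JUN, the main AP-1 partner of FOS, had signals of 6146, 4614, 4047, 3244, 2476 and 2751 over the same 6 arrays. It was lower on each array up to 10 h, with a fitted change of -1.19 (slope SE 0.021, adjusted p = 0.0296). JUNB, a JUN relative with weaker activation, had 161, 125, 108, 42.2, 54.2 and 66.1. Its fitted change of -1.54 had an adjusted p of 0.118, and its signals were close to background, so that the arrays at 14 and 16 h (41 and 26.2) were not well above it. JUND, the member of the family that most cells express steadily, stayed between 978 and 1139 on these arrays, with a fitted change of -0.08 (adjusted p = 0.717). Over all 19 arrays JUND ranged 1.43-fold, from 809 at 16 h to 1156 at 60 h, whereas the range was 4.54-fold for JUN. The lowest JUNB signal, at 16 h, was not well above background, so that no range is given for JUNB.

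EGR1 had 3467 at 3 h and 3876 at 4 h, then 1612, 1532 and 1564 at 6, 8 and 10 h, and 2336 at 12 h. The 3 and 4 h arrays stood above the other 4 without overlap, but the course was a step and not a line, and the fitted change of -0.92 had an adjusted p of 0.324. EGR2 had 551, 422, 223, 187, 118 and 166, a fitted change of -1.95 (slope SE 0.0447, adjusted p = 0.0475). The EGR corepressors NAB1 and NAB2, which bind EGR proteins and silence them, lay lower too. NAB2 had a step like that of EGR1, with 30700 and 25310 at 3 and 4 h, 9011 at 6 h and 11230 at 12 h (adjusted p = 0.164). NAB1 fell, by 0.66 on the log2 scale (adjusted p = 0.033).

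IER2 gave 90857, 92495, 84343, 76817, 56938 and 58554, a fitted change of -0.76 (slope SE 0.0143, adjusted p = 0.033). MYC, which drives growth genes and is part of the hESC network, had 8323, 6683, 6259, 4492, 2978 and 3692. Its fitted change was -1.35 (slope SE 0.026, adjusted p = 0.0342), and only its 12 h array broke the downward order. At 12 h, 8 of the 10 genes were above both the 10 h and the 14 h array, against 36.6% of all probes. The 14 h array lies on the second slide and had 49.5% of probes well above background, so that slide and time cannot be told apart here.

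The slopes of all 10 genes stayed below 0 when any 1 of the 6 arrays was left out, but the calls did not last. Without the 3, 4, 8 or 10 h array none of the 10 genes passed, without 6 h 1 did and without 12 h 3 did. Without 3, 4 or 10 h no probe of the whole array passed in either direction.

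**Figure D2:**
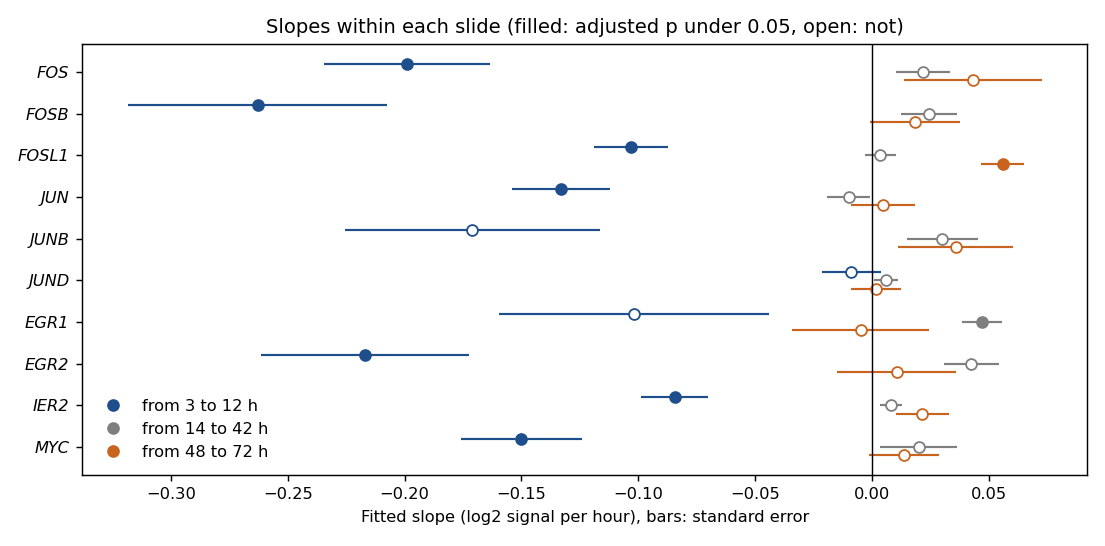
Fitted slope of log2 signal per hour, with its standard error, for each gene within each of the 3 slides. Filled points had an adjusted p under 0.05; the 7 filled points from 3 to 12 h lie left of 0, and from 14 to 42 h only EGR1 and from 48 to 72 h only FOSL1 are filled.

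Most other immediate early genes had slopes of the same sign. Of 30 other immediate early genes 28 were tested from 3 to 12 h, 26 had a slope below 0, 9 fell and 1 rose, with a median fitted change of -0.87. EGR4, an EGR family member, fell by 4.12 on the log2 scale (adjusted p = 0.0273); it gave 905.7 at 3 h and 54.6 at 10 h. DUSP2, a phosphatase that switches off ERK, fell by 1.79 (adjusted p = 0.0216). SGK1, a kinase induced by serum and stress, rose by 0.73 (adjusted p = 0.0336), from 4853 at 3 h to 7825 at 12 h. The other gene with a slope above 0 was PHLDA1 (fitted change 0.19, adjusted p = 0.684), named after its value was seen.

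ERK feedback and ETS genes, which report on activity of the ERK pathway, gave 7 falls and no rise among 12 genes, with a median of -0.68. SPRY4, an inhibitor of receptor signalling, had 2989, 2130, 980.4, 628.9, 527.2 and 531.4 from 3 to 12 h and fell by 2.6 (adjusted p = 0.0295). EPHA2, a receptor tyrosine kinase, fell by 1.73 (adjusted p = 0.0324). By contrast, none of the 22 regulators upstream of these genes that were tested (ERK, RSK and p38 kinases, ELK factors, SRF and CREB1 among them) passed, and their median was -0.05. The kinases MAP2K7 and MAP2K4, which act on JNK, had fitted changes of 0.02 (adjusted p = 0.945) and -0.28 (adjusted p = 0.247).

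AP-1 partners and inhibitors included 2 genes that fell, among 12. They were MAFF, a small MAF protein (-1.14, adjusted p = 0.0363), and JDP2, a repressor that binds JUN (-0.82, adjusted p = 0.0452). MAFF is also counted among the falls of other immediate early genes above, and the lists are not separate. Of 11 AP-1 target genes tested only CCND1, a cyclin of the G1 phase, fell (-0.7, adjusted p = 0.0447), and the median was 0.13. MMP1 was well above background on 1 array and MMP3 and CXCL8 on none. Of 15 SRF and actin cytoskeleton targets none passed in this window, with a median of -0.05. The actins ACTB and ACTG1 had fitted changes of 0.12 (adjusted p = 0.387) and 0.04 (adjusted p = 0.786).

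MYCN, the MYC relative that hESCs express, was the 1 gene among 13 MYC partners and antagonists that fell. Its signals were 12230, 10510, 6553, 5277, 4040 and 3825 up to 12 h, and it fell by 1.76 on the log2 scale (adjusted p = 0.0163). Of 29 MYC target genes 3 fell, among them CCND2 (-1.16, adjusted p = 0.0304) and POLR1B, a subunit of RNA polymerase I (-0.76, adjusted p = 0.0208). The median of MYC targets was -0.15.

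Heat shock genes moved in the same direction: 5 of 8 fell, with a median of -0.78. HSPA1A and HSPA1B, which code for the same inducible HSP70 and whose near-identical transcripts a probe may not separate, fell by 1.71 (adjusted p = 0.0232) and fell by 1.55 (adjusted p = 0.0164). The summed signal of the 8 heat shock genes, a sum to which the HSP90AA1 probe added most, was 419400 at 3 h and 352000 at 12 h. Of 7 trophoblast and amnion genes tested 3 fell, with a median of -0.74. GATA3 had a fitted change of -1.4 (adjusted p = 0.0277). HAND1 passed (adjusted p = 0.0395) but was not well above background at 8, 10 and 12 h, so that the size of its fall is not given. TFAP2C fell as well (-0.6, adjusted p = 0.0494). The summed signal of this list was 8481 at 3 h and 8495 at 12 h. Among pluripotency genes ZFP42 alone fell (-0.49, adjusted p = 0.047), and of 5 fibroblast genes THY1 did (-0.73, adjusted p = 0.0384). MESP2, a mesoderm factor, was the 1 mesoderm or endoderm gene of 8 that rose, from 217.5 at 3 h to 317.6 at 12 h. No gene of this list rose with the array median or the spike-in RNA as the scale. None of 10 housekeeping genes passed (median 0.09), with 0.09 for RPLP0 (adjusted p = 0.52) and 0.02 for PPIA (adjusted p = 0.904). The part of these genes in the courses of the 10 genes was not tested. On the spike-in scale falls numbered 7 for other immediate early genes, 4 for heat shock genes and 3 for ERK feedback and ETS genes. They numbered 1 each for AP-1 partners, MYC partners, MYC targets, fibroblast genes, and trophoblast and amnion genes. For EGR corepressors, AP-1 targets and pluripotency genes they numbered 0. Of all probes 1.42% fell on this scale.

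**Figure D3:**
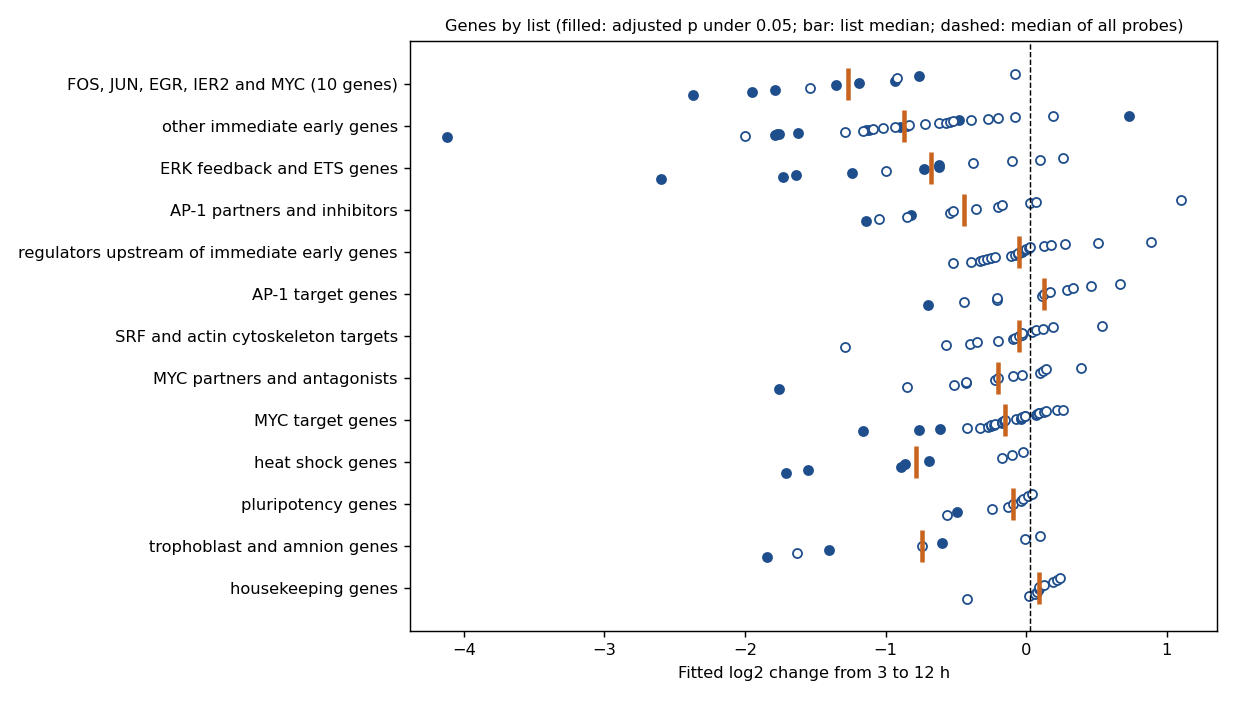
Fitted log2 change from 3 to 12 h (horizontal axis) of each tested gene, in 13 lists. Some genes, such as MAFF and SRF, are in more than 1 list. Filled points had an adjusted p under 0.05, orange bars are list medians and the dashed line is the median of all probes (0.03); the medians of the 10 genes (-1.27), other immediate early genes (-0.87), heat shock genes (-0.78), trophoblast and amnion genes (-0.74) and ERK feedback and ETS genes (-0.68) lie farthest left of it, those of 6 more lists lie less far left and those of AP-1 targets and housekeeping genes lie right of it.

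From 14 to 42 h, on the second slide, 9 of the 10 slopes were above 0 and EGR1 rose. Its signals were 1842, 2076, 2174, 2581, 3960, 3775, 4810 and 3786 at 14, 16, 20, 24, 28, 32, 36 and 42 h. The fitted change was 1.32 on the log2 scale (slope 0.0473 per hour, SE 0.00868, adjusted p = 0.0217). Of 30036 probes 5.42% rose and 2.91% fell. The 14 and 16 h arrays had 49.5% and 52.0% of probes well above background, with 814 and 608 flagged spots, against 55.9% to 64.3% on the later arrays of the slide, and the part of this in the slopes was not tested. The call did not hold without the 14, 16 or 36 h array, and its highest adjusted p with an array left out was 0.0804. EGR2 had 117, 110, 161, 226, 228, 214, 327 and 210 in this window, a fitted change of 1.19 with an adjusted p of 0.0599. JUN was the gene with a slope below 0, with 2074 (14 h), 2507 (36 h) and 1353 (42 h) (fitted change -0.28, adjusted p = 0.51). The median fitted change was 0.59 for the 10 genes and 0.04 for all probes. With the spike-in RNA as the scale 6 of the 10 slopes were above 0 and 4 below. The medians were then 0.32 for the 10 genes and -0.23 for all probes.

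The change of slope between the windows was tested in 1 fit, a comparison added after the values had been seen. It used the same 3 to 12 h arrays as the falls given above, so that it is not separate from them. The slope from 14 to 42 h was above that from 3 to 12 h for all 10 genes, and the difference passed the test for 6, FOS, FOSB, FOSL1, JUN, EGR2 and IER2, against 3.14% of 29829 probes. JUN passed with a slope below 0 in both windows (-0.133 per hour from 3 to 12 h and -0.00988 from 14 to 42 h). The difference was 0.287 per hour for FOSB (adjusted p = 0.00884) and 0.0925 for IER2 (adjusted p = 0.00597). For MYC it was 0.17 (adjusted p = 0.066), for JUNB 0.202 (adjusted p = 0.0626), for EGR1 0.149 (adjusted p = 0.0914) and for JUND 0.0147 (adjusted p = 0.66). With the spike-in RNA as the scale, FOSB was the 1 gene that kept an adjusted p under 0.05 (0.0273).

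At 36 h, 7 of the 10 genes were above both neighbouring arrays, against 28.1% of all probes. MYC had 3308, 5621 and 2114 at 32, 36 and 42 h, so that the 36 h array was 1.7-fold above the higher neighbour. FOS had 356, 707 and 449 at these times (1.58-fold) and EGR2 214, 327 and 210 (1.53-fold). FOSB (-0.02 on the log2 scale against the higher neighbour), FOSL1 (-0.48) and IER2 (0.00) were not above both. Centred on the array median or on the spike-in scale FOSB (0.04 and 0.5) and IER2 (0.05 and 0.23) were. That makes 9 of the 10, but a scaling shifts every probe of an array alike. The 28.1% of all probes holds for the 75th percentile scale only. Against the spike-in RNA the 75th percentile lay at -0.42, 0.2 and -0.04 (log2) at 32, 36 and 42 h. None of the 10 genes reached 2-fold, but with the spike-in RNA as the scale the height of MYC was 1.38 (log2), which is past 2-fold. Of 29 other immediate early genes 21 were above both neighbours at 36 h. So were 8 of 12 ERK feedback and ETS genes, 8 of 12 AP-1 partners and 10 of 22 upstream regulators. Housekeeping genes had 5 of 10, SRF and actin targets 6 of 15 and MYC targets 9 of 29. Of heat shock genes 1 of 8 was, of AP-1 targets 2 of 11, and of trophoblast and amnion genes none of 8.

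From 48 to 72 h, on the last slide, FOSL1 rose. It had 166, 214, 212, 308 and 442 at 48, 54, 60, 66 and 72 h, a fitted change of 1.34 (slope 0.056 per hour, SE 0.0091, adjusted p = 0.045), and its 72 h array was its highest of all 19. Of 30903 probes 1.31% rose and 2.64% fell, and none of the 10 genes fell. The call was lost without any 1 of the 5 arrays, where no probe of the array passed. THY1, whose course was most like that of FOSL1, also rose, from 13540 at 48 h to 32050 at 72 h (adjusted p = 0.0461). Among 29 other immediate early genes 2 rose, IER5 (fitted change 2.09, adjusted p = 0.0412) and ARC (2.31, adjusted p = 0.0382). SRF was the 1 gene of this list that fell (-1.32, adjusted p = 0.0445). Among 12 ERK feedback and ETS genes DUSP5 (1.73), ETV5 (1.42) and ETV4 (0.96) rose and none fell. These genes were named after their values were seen. On the spike-in scale 1 of the 29 genes rose and 12 fell, and 4 of the 12 genes fell and none rose, where 69.8% of all probes fell. Directions here depended on the scale: with the spike-in RNA the median of all probes was -1.19, 9 of the 10 slopes were below 0 and FOSL1 no longer passed.

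The array at 60 h stood apart for these genes. FOS had 542, 1657 and 748 at 54, 60 and 66 h, 2.21-fold above the higher neighbour, and EGR1 had 3752, 8931 and 4080, 2.19-fold above. Both values were the highest of their 19 arrays. These 2 genes were the single-array peaks of at least 2-fold among the 10, against 7.94% of probes with such a peak at any array and 0.371% at 60 h. No gene of the 10 had a trough of that size, which 2.58% of probes had.

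Other members followed with smaller heights. EGR2 had 240, 482 and 248 (1.95-fold), JUNB 97.6, 219 and 120 (1.82-fold) and FOSB 78, 133 and 65.6 (1.7-fold). MYC had 2841, 5455 and 3853 (1.42-fold), JUN 1497, 2473 and 1852 (1.34-fold), JUND 823, 1156 and 905 (1.28-fold) and IER2 53415, 83882 and 66440 (1.26-fold). In all, 9 of 10 genes were above both neighbours at 60 h, against 23.9% of probes. FOSL1 was the exception, with 214, 212 and 308. The 60 h array is a single hybridisation without a replicate.

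**Figure D4:**
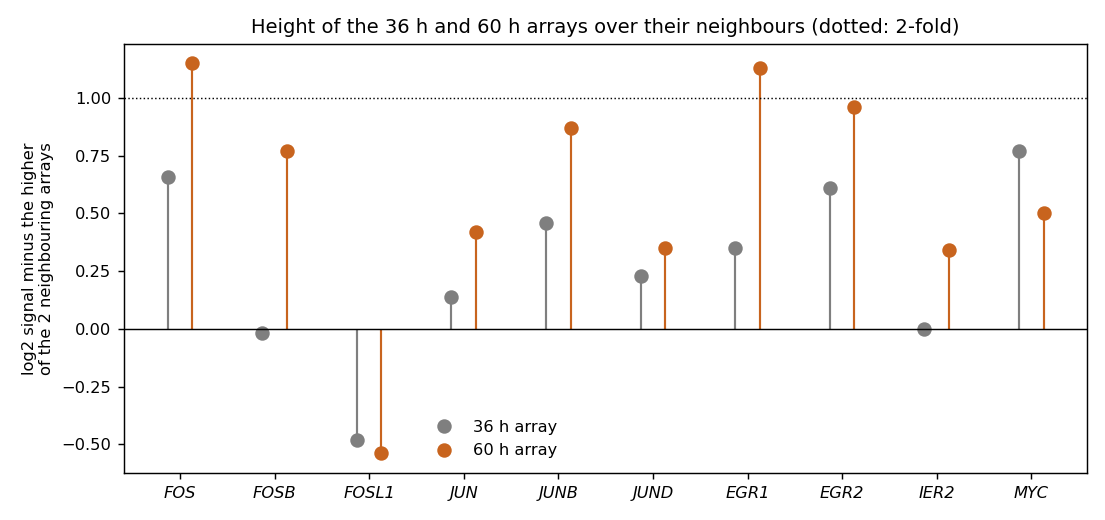
Height of the 36 h (grey) and 60 h (orange) arrays over the higher of their neighbouring arrays, in log2 units, for each of the 10 genes. Points above 0 are above both neighbours and the dotted line is 2-fold; FOS (1.15) and EGR1 (1.13) pass it at 60 h and FOSL1 (-0.54) is below 0.

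The same 9 genes were above both neighbours with the array median or the spike-in RNA as the scale. Centred on the array median the height was 1.24 for FOS and 1.22 for EGR1, and on the spike-in scale 1.24 and 0.88, the latter under 2-fold. The 75th percentile lay at -0.07 against the spike-in RNA at 60 h (log2), at 0.3 at 54 h and at -0.78 at 66 h. Of 29 other immediate early genes 19 were above both neighbours at 60 h and 4 had a peak of at least 2-fold. They were DUSP1, a phosphatase of MAP kinases (717.9, 1809 and 750.8 at 54, 60 and 66 h), EGR4 (314.8, 733.9 and 294.3), KLF2 (1022, 2396 and 1034) and KLF6 (4494, 11430 and 5554), both zinc finger factors. MXD1, which competes with MYC for MAX, had 330.8, 1402 and 507.7.

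Of 8 heat shock genes 5 were above both neighbours at 60 h, and 2 had a peak of at least 2-fold. HSPA1A had 7171, 49180 and 20240 at 54, 60 and 66 h, and HSPA1B 6780, 38230 and 13740. At 72 h HSPA1A had 22670 and HSPA1B 14620, so that both stayed below their 60 h signal. The summed signal of the 8 heat shock genes was 269600 at 54 h and then 493500, 479300 and 494600 from 60 to 72 h. The HSP90AA1 probe added most to this sum, and no such sum is given on the spike-in scale. The part of the heat shock genes in the height of FOS and EGR1 was not tested. At 3, 4 and 12 h HSPA1A had 5827, 5931 and 2032, and FOS had 1127, 1359 and 466. Above both neighbours at 60 h were 7 of 12 AP-1 partners, 6 of 13 MYC partners and 9 of 22 upstream regulators. So were 10 of 29 MYC targets, 3 of 9 pluripotency genes, 3 of 15 SRF targets and 2 of 11 AP-1 targets. Of ERK feedback and ETS genes 1 of 12 was, of housekeeping genes 1 of 10 and of fibroblast genes 1 of 5. None of 8 trophoblast and amnion genes and none of 8 mesoderm and endoderm genes was. Of all probes 23.9% were.

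**Figure D5:**
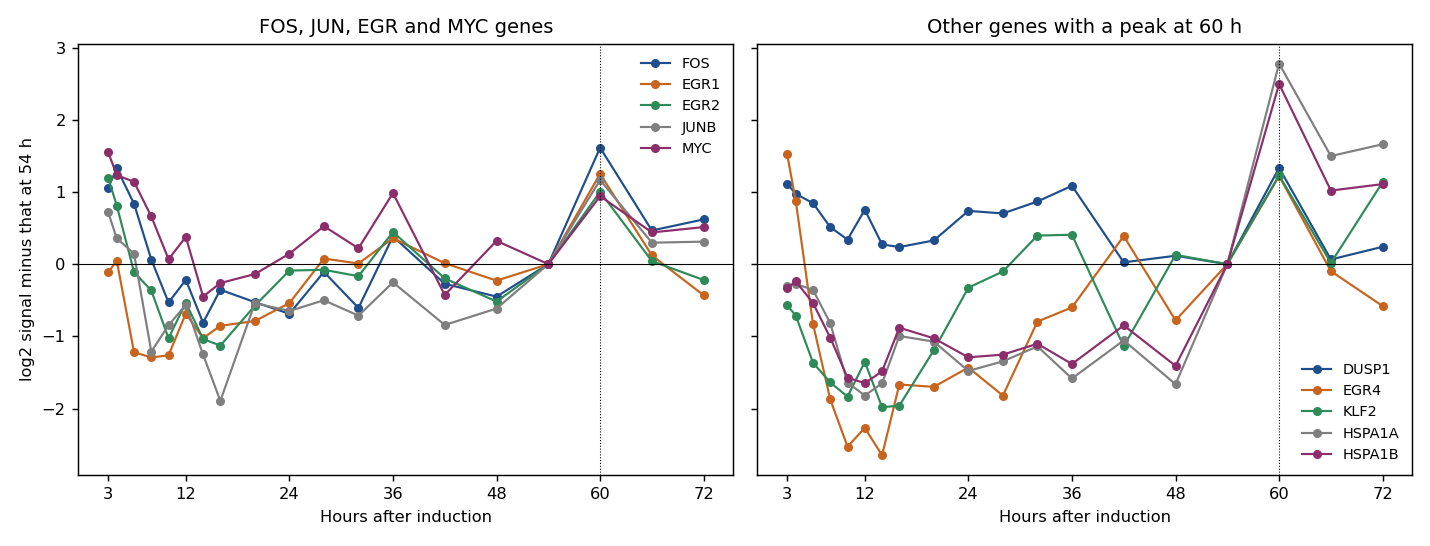
Log2 signal minus that at 54 h against hours after induction, for 5 of the 10 genes (left) and 5 other genes with a peak of at least 2-fold at 60 h (right), each point 1 array. Each plotted gene was above its 54 h value at 60 h, HSPA1A and HSPA1B by the most; FOS was higher at 3 h than at 54 h, and HSPA1A, HSPA1B and EGR1 were lower.

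Over all 19 arrays JUN fell and EGR1 rose. JUN had 6146 at 3 h and 1633 at 72 h, a slope of -0.0177 per hour (SE 0.00415, adjusted p = 0.00152), and its lowest signal was 1353 at 42 h. EGR1 had a slope of 0.0174 (SE 0.00544, adjusted p = 0.0117), with the lowest signal at 8 h and the highest at 60 h. Of 32113 probes 27.4% rose and 24.7% fell, so that calls were common in this fit. With the slide as a block neither gene passed (adjusted p = 0.495 for JUN and 0.422 for EGR1). With the array median as the scale the slope of EGR1 was 0.0127 with an adjusted p of 0.0725. The other 8 genes did not pass in this fit. Most were high, low and high again, as MYC, whose signal was 8323 (3 h), 2081 (14 h) and 4055 (72 h).

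The gene lists are given over the 19 arrays in the same way; the spread of rises and falls in them moved with the scale, since the median fitted change of all probes was 0.09 as scaled here, but -0.23 once arrays were centred on their medians and -0.42 on the scale of the spike-in RNA. With the slide as a block, 1 upstream regulator and 1 housekeeping gene rose, and no gene of the other lists did. Falls with the block numbered 7 for MYC targets, 6 for SRF and actin targets, 1 each for other immediate early genes, upstream regulators, AP-1 partners and pluripotency genes, and 0 for the rest. Over all probes 36.0% fell and 13.5% rose when centred on the array median, 34.8% and 4.62% on the spike-in scale, and 4.02% and 4.88% with the slide as a block. Of 29 MYC target genes 21 fell and 2 rose, with a median of -0.64 against -0.27 for MYC itself and 0.09 for all probes. NOP58, a ribosome assembly factor, fell by 1.63 (adjusted p = 1.17e-08) from 45330 at 3 h to 14620 at 72 h, and ODC1, the first enzyme of polyamine synthesis, fell by 1.52 (adjusted p = 5.78e-08), while TERT (0.64, adjusted p = 0.0117) and LDHA (0.61, adjusted p = 0.0127) rose. No MYC target rose when centred on the array median, on the spike-in scale or with the slide as a block, while 23, 25 and 7 fell. MAX, the partner of MYC, rose (0.53, adjusted p = 0.0445), though not with the slide as a block or the other scalings, where no gene of this list rose, and MYCL fell (-0.71, adjusted p = 0.00213).

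Of 15 SRF and actin cytoskeleton targets 10 fell and none rose (13 fell under either other scaling and 6 with the slide as a block). TAGLN, a smooth muscle actin-binding protein, fell by 1.9 (adjusted p = 9.37e-10) and VCL, vinculin of cell-matrix contacts, fell by 1.64 (adjusted p = 4.63e-07). SRF itself, which binds CArG boxes and is also counted among other immediate early genes, fell by 1.75 (adjusted p = 2.02e-07). It had 580.4 at 3 h and 131.4 at 72 h, and it was among 8 falls and 3 rises of 22 upstream regulators. Centred on the array median 10 of these fell and 0 rose, on the spike-in scale 9 and 0, and with the slide as a block 1 and 1. ELK4, an ETS partner of SRF, rose (0.73, adjusted p = 0.00239), as did the kinase MAPK14, and RPS6KA2, an RSK kinase, fell. Of 11 AP-1 targets CD44 (-1.85, adjusted p = 5.04e-06) and HBEGF fell, and AXL rose (0.41, adjusted p = 0.000228), whereas no gene of this list rose under either other scaling or with the block.

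AP-1 partners gave 3 rises and 4 falls among 12 (1 and 5 when centred on the array median, 1 and 8 on the spike-in scale, 0 and 1 with the slide as a block). ATF7, which binds CRE-like sites, fell by 2 (adjusted p = 1.78e-07). BATF2 rose and BATF3 fell. Among other immediate early genes 5 rose and 3 fell (3 and 7 when centred on the array median, 2 and 11 on the spike-in scale, 0 and 1 with the slide as a block), among the rises NR4A1 (adjusted p = 0.0018; not well above background from 6 to 16 h, so that no size is given) and KLF2 (2.39, adjusted p = 0.000261), and among the falls CCN1, a matrix protein, which fell by 1.3 (adjusted p = 0.00188). SPRY4 rose (1.38, adjusted p = 0.0368) with SPRY1 and SPRY2, though none of this list did with the array median or the spike-in RNA, and SPRED1 and ETV1 fell. HSPA1A and HSPA1B rose (2.46 and 2.12, adjusted p = 0.00753 and 0.00641) and HSPE1 fell. Of the cell type lists, 5 of 9 pluripotency genes fell, DNMT3B most (-0.93, adjusted p = 2e-06). HAND1 (adjusted p = 9.98e-05) and CGA (adjusted p = 0.0147) rose, but were well above background on 13 and 11 arrays, most low arrays not among them, so that no size is given. CDX2, well above background on 16 arrays, and TFAP2C fell; MESP1 and MESP2 rose and FOXA2 fell. COL1A2 rose and COL1A1 and FBLN1 fell, but no fibroblast gene rose under either other scaling. Trophoblast and amnion genes gave 3 rises and 2 falls, then 2 and 2 (array median) and 1 and 2 (spike-in scale), and mesoderm and endoderm genes 2 and 1, then 2 and 3, and 1 and 3. Of 10 housekeeping genes 3 rose, B2M and PGK1 most, and 4 fell, HPRT1 and YWHAZ most (1 and 5 when centred on the array median, 0 and 5 on the spike-in scale).

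The courses of the 10 genes were compared by Pearson's r over the 19 arrays, which share slides and time order, so that r is a description. Of 45 pairs 43 had an r above 0 and 32 above 0.5, with a median of 0.628. No such count over pairs of all genes was made, so that these counts are not read as particular to the 10 genes. Without the 3 and 60 h arrays the median was 0.504, and within the first, second and last slide it was 0.842, 0.403 and 0.795. FOS and IER2 were most alike (r = 0.877), followed by JUNB and EGR2 (0.839). FOS with JUNB and FOSL1 with IER2 came next (0.834 each). FOSL1 and EGR1 had an r of -0.188 and JUN and EGR1 -0.129. EGR1 was least like the rest, with a median r of 0.308 to the other 9, whereas MYC (0.738) and EGR2 (0.719) had the highest medians.

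Among 13968 genes well above background on all 19 arrays, the courses nearest to each member were as follows. For FOS they were LNX2 (r = 0.927), ZFP36 (0.926), which codes for an RNA-binding protein that destabilises AU-rich transcripts, and MYNN (0.92). For MYC they were MCL1 (0.936), a survival factor, MAFF (0.935) and RHOB (0.932), a small GTPase, and MAFF also had an r of 0.993 within the first slide and 0.969 within the second. For EGR2 they were KLF9 (0.924), SNAI1 (0.91), a repressor of E-cadherin, and SALL1 (0.908). For FOSL1 they were THY1 (0.971), DDRGK1 (0.95) and ARC (0.949), and for JUN UBALD2 (0.937), SELENOK (0.933) and IL11 (0.926), a cytokine.

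For IER2 the nearest were KIAA1549 (0.967), ZBTB46 (0.964) and EPC2 (0.957), and for EGR1 GCH1 (0.897), EEF1AKMT3 (0.879) and ZNRF2 (0.872). JUND had the weakest likeness, with BNIP1 (0.894), TRIP10 (0.869) and CREBZF (0.826). The gene at place 100 still had an r of 0.872 for IER2 and 0.698 for JUND. FOSB and JUNB were not well above background on all arrays and were left out of this comparison. IL11 had 2462 at 3 h and 564.6 at 16 h. KLF9 had 1225, 332.3 and 1243 at 3, 16 and 60 h, so that these genes repeated the high early arrays and, for KLF9, the 60 h array.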

How the data were processed

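Cy3-labelled RNA of 19 samples was hybridised to one-colour Agilent human arrays, 1 per time point. The authors deposited the output of Agilent Feature Extraction 10.10.1.1 (version per the labels), in which the processed intensity of each spot is corrected for background within the array and not scaled between arrays, with flags of 0 or 1, deposited as a score, for spots well above background. A second table of intensities that the authors deposited holds, where it has a value, about the first times a factor for each array (0.9051 to 1.3777), and leaves 17891 to 25519 probes per array blank, so that fits on it drop those arrays for a probe. Control spots and flagged spots (232 to 814 per array) were left out and the spots of a probe averaged. The log2 intensity was scaled by the 75th percentile of each array and probes were named through RefSeq (28174 of 50683 probes, 20503 genes).

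For slopes on hours, limma 3.58.1 (R 4.3.3) was run over probes well above background on at least 5 of 19, 3 of 6, 4 of 8 or 3 of 5 arrays, with Benjamini-Hochberg adjustment over all of them. A gene was its probe with the highest mean signal. A peak was an array at least 2-fold above both neighbours, also where a neighbour lay on another slide, without a test. Simulated data with 200 changed probes (log2 change of 2) gave 176, 174, 167 and 124 recovered in the 4 windows, with 13, 12, 8 and 5 false calls. The simulated scatter was independent between arrays, around straight lines and without slide differences. It therefore does not show how many changes are recovered in stepped courses such as those here. The tables were made with Python 3.11.15, numpy 2.4.6, pandas 2.3.3 and scipy 1.17.1.

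The 10 genes and the gene lists were chosen with earlier results of these data known. Named genes were the steepest 2 in each direction per list among those called over 19 arrays and from 3 to 12 h (where none was called, the 2 with the highest mean signal), lists of 2 genes whole, and the 3 genes with the highest r to each member. Some genes that this rule names are not reported here. Alternatives were other scalings (array median, spike-in RNA), normexp with quantile normalization, the deposited table, other filters, log2 hours, the slide as a block, and leaving out each array. Array number and signal over background limit the precision.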

Additional observations from a re-analysis of the deposited data

Results flagged for a closer look

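In 6 genes the comparison of 2 time windows passed its test, in which the slope from 14 to 42 h was set against that from 3 to 12 h in 1 limma fit. The difference in log2 per hour was 0.221 for FOS (adjusted p = 0.0102), 0.287 for FOSB (adjusted p = 0.00884), 0.107 for FOSL1 (adjusted p = 0.0126), 0.123 for JUN (adjusted p = 0.0314), 0.26 for EGR2 (adjusted p = 0.00804) and 0.0925 for IER2 (adjusted p = 0.00597). The windows lie on different slides, and slide and time cannot be told apart. The test was added after the values had been seen. It used the same 3 to 12 h arrays as the falls reported above and is not separate from them. Without the 3 h array FOSB (adjusted p = 0.0671), JUN (0.193) and EGR2 (0.0674) no longer passed, without the 4 h array FOSL1 (0.0516) and JUN (0.0721) did not, without 10 h JUN (0.103) did not and without 12 h FOSL1 (0.0996) did not. FOS and IER2 passed without any single array of the 14. Leaving out an array also added calls, MYC without 42 h (0.00245) or 36 h (0.0486), JUNB without 42 h (0.0344) and EGR1 without 12 h (0.0249). With log2 hours FOSL1 (0.0668) and JUN (0.106) did not pass and JUNB (0.0193), EGR1 (0.00806) and MYC (0.0365) did. JUNB (0.0283) also passed with normexp, and on the spike-in scale FOSB alone passed (0.0273).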

How the results depend on the processing

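No paired analysis was possible because a time point is 1 array only. From 3 to 12 h, 7 of the 10 genes fell, against 3.27% of all probes. With the array median (3.74% of probes) or log2 hours (2.94%) 5 fell, and with the mean of probes 6. With the spike-in RNA (1.42%) 4 fell, and with no filter 0, where no probe passed. With 1 array left out 0 to 3 fell, and 0 rose under any alternative run. The slope of all 10 genes was below 0 under each alternative run in this window. From 14 to 42 h, 1 gene rose, against 5.42% of all probes. With normexp, the filter on all arrays or log2 hours 2 rose, against 5.6%, 5.31% and 8.22% of probes. None rose with the spike-in RNA (0.243% of probes) or no filter (0.0809%). With an array left out 0 to 3 rose, 3 without 42 h (9.87%) and 0 without 14 h (0.58%), 16 h (0.946%) or 36 h (1.56%). From 48 to 72 h, 1 gene rose, against 1.31% of all probes. None did with the spike-in RNA (0.434% of probes), log2 hours (0.78%), no filter or any array left out. No probe rose with no filter or with any array left out. In that window the spike-in RNA gave 4 falling genes, among them JUN (slope -0.0457), JUND (-0.0487) and EGR2 (-0.0398), whose slopes were above 0 with the 75th percentile; the median of all probes was -1.19 with the spike-in RNA and 69.8% of them fell. Over 19 arrays 1 gene rose and 1 fell. None rose with the array median, the spike-in RNA or the slide as a block, with either scaling; 2 fell with the array median (36.0% of all probes), 3 with the spike-in RNA (34.8%), 2 without 66 and 72 h (23.4%, an alternative added later, which adds FOSL1) and 0 with the slide as a block; with an array left out 1 to 2 rose and 1 to 2 fell. The median of all probes over 19 arrays was -0.23 (array median) and -0.42 (spike-in RNA).

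Genes with a single-array peak numbered 2, but 3 with the array median, 6 at 1.5-fold, 4 against the mean of both neighbours and 0 at 4-fold. At 1.5-fold a gene could have more than 1 peak, as FOS and EGR2 had at 36 and 60 h. No share of all probes is given for these alternatives. Genes with a trough numbered 0, but 2 at 1.5-fold, 3 with the spike-in RNA and 1 against the mean of both neighbours. At 1.5-fold they were FOSB, with troughs at 16 and 66 h, and MYC, at 42 h, where the next array is on the last slide. The causes of these changes were not tested. Signals of JUNB and FOSB near background are the least certain: the slope of JUNB from 14 to 42 h, not called in either case, was 0.0303 but -0.00472 in the deposited table, where its 14 and 16 h values are blank.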
